A study of Fragaria x ananassa with 4 samples.

Results

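Enzymes of amino acid and shikimate synthesis were followed through strawberry ripening in the receptacle, the fleshy tissue that carries the achenes. Members were the genes whose annotation on the array names an enzyme of the shikimate pathway, of the branches from chorismate to phenylalanine, tyrosine and tryptophan, of glutamine, glutamate and asparagine synthesis, an aminotransferase, or a cysteine synthase, acetolactate synthase or aspartokinase. The wording found 97 of the 35117 sequences of the study's expression matrix, after 15 sequences with the word hydroxycinnamoyl had been left out, and 87 of them were bright enough to be tested among 24975 genes. The rule reads only the annotation text and no signal. RNA of F. × ananassa, the cultivated octoploid strawberry, was labelled with Cy3 and hybridised to 4 1-colour Agilent arrays, 2 from ripe red fruits and 2 from green fruits, which the methods describe as small green (G1) receptacles of cv. Camarosa without achenes. The labels name no transgene or treatment for these samples, and give growth in a chamber and then a greenhouse where the methods give a field. RNA came from independent fruit pools by the methods and from independent fruits by the labels, but neither says which pool each of the 2 samples of a stage came from, so p-values here measure the spread between these samples, which may be partly technical.

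In plants the shikimate pathway runs in plastids from sugar intermediates to chorismate, from which all aromatic amino acids are made. Phenylalanine is also the entry to phenylpropanoids, among them lignin and the anthocyanins that colour the ripe fruit. Inorganic nitrogen enters amino acids as ammonium through glutamine synthetase and glutamate synthase, and aminotransferases then pass the amino group on to other carbon skeletons. The probes were designed on gene models of the woodland strawberry, F. vesca, so near-identical copies of a gene in the octoploid genome may share a probe, and how much they did was not tested.

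The arrays of a stage were close to each other, with correlations over all tested genes of 0.994 for red and 0.995 for green, against 0.818 to 0.820 across stages. The 75th percentile of the signal ran from 347 to 671, and 23658 to 24373 probes were well above background on an array. The ripe receptacle genes FaMYB10 (gene31413), FaPG1 (gene21638) and FaQR (gene28407) were higher in red by 7.63, 3.74 and 6.75 on the log2 scale. Of 51 tested genes for photosystem and light harvesting proteins, which mark green tissue, 49 were lower in red (96.1%, against 35.1% of all genes). The summed signal of the 51 was 321 and 339 in red against 1750 and 1695 in green. Achene markers were matched by words for storage and oil body proteins of seeds. Of the 26 tested, 16 were higher in red (61.5%, against 37.8% of all genes) and 8 lower (30.8%, against 35.1%). The summed signal of the 26 was 53.3 and 53.2 in red against 56.0 and 59.5 in green. They include 5 genes annotated as proline-rich proteins or extensins, 4 of them lower. Of the other 21, 15 were higher and 4 lower, with a median difference of 1.32 and summed signals of 26.5 and 27.1 in red against 19.9 and 21.0 in green (signal divided by the 75th percentile of the array), among them the caleosin gene11561, higher by 4.09, and the oleosin gene09024, by 3.41. The split was made after the values were seen, and the part of either marker list in the results was not tested. Red replicate 1 lay on slide 1, while the other 3 arrays shared slide 2.

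The members moved in both directions, in about the shares found for all genes. Values are log2 signals relative to the 75th percentile of the array, given for replicate 1 and then replicate 2 of a stage, a difference is the mean of the red arrays minus that of the green arrays, and a gene was called at an adjusted p under 0.05 in limma's moderated test over all 24975 genes, with Benjamini-Hochberg adjustment. Of the 87 tested members, 36 were higher in red, 34 were lower and 17 did not pass. These shares of 41.4% higher and 39.1% lower stand beside 37.8% and 35.1% of all tested genes, and 72.8% of all genes were called in either direction. In bulk tissue a lower share of a cell type and less RNA per cell cannot be told apart. A change of at least 2-fold was found in 17 members that were higher (19.5%, against 17.4% of all genes) and 16 that were lower (18.4%, against 21.5%). The median difference was -0.05 over the members and 0.04 over all genes, and the median absolute difference was 0.73 against 0.75. In 81 members the red and the green arrays did not overlap (93.1%, against 87% of all genes). Single members ranged widely, from -6.29 for gene13440 to at least 138-fold higher for gene16480, whose green signal was not well above background, while the arrays of a stage differed from each other by a median of 0.08 in the members.

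The direction of small differences depended on the scaling. In the study's own matrix the median difference of all genes was 0.51, and 50 members were called higher and 21 lower; the share of higher calls among all calls was 68.8% there, against 51.9% with the 75th percentile and 40.0% after a normexp background correction. The calls of 13 of the 34 lower members were lost or turned in the study's matrix, where 0 of the 36 higher calls were lost, while quantile normalization ended 4 higher and 3 lower calls. Of the called members, 32 that were higher and 28 that were lower kept their sign under all scalings, filters and left-out arrays that were tried, and 10 did not, each of which is named where it is described. In practice only the scalings could turn a sign. Leaving out an array cannot do so where the stages do not overlap. A filter leaves a member with 1 probe either unchanged or untested, and an untested member was counted as keeping its sign. The call itself was kept by 58 of the 70 called members when any 1 array was left out.

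**Figure D1:**
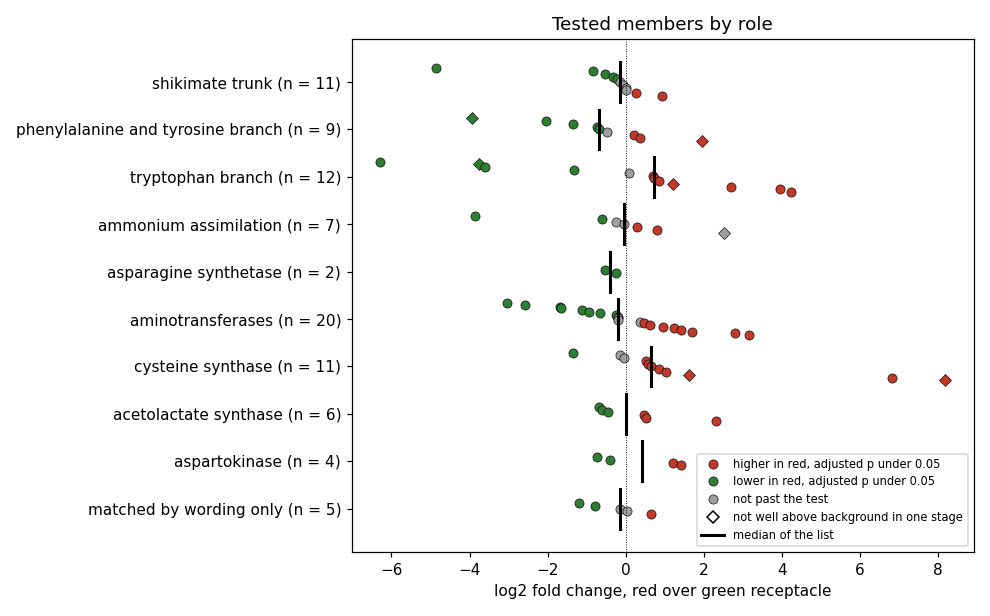
Log2 fold change (red over green receptacle) of the 87 tested members on the x axis, grouped by role on the y axis, 1 symbol per gene, with a black bar at the median of each list. Values of either sign appear in every list with more than 2 genes, and the tryptophan branch and the cysteine synthases hold the extremes, -6.29 and a fitted 8.19 that is only a bound (at least 138-fold), since gene16480 was not well above background in green.

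The trunk of the shikimate pathway had few large differences. Of its 13 members 11 were tested. In red 2 were higher (18.2%, against 37.8% of all genes), 5 were lower (45.5%, against 35.1%) and 4 did not pass. The median difference was -0.15 and became 0.33 in the study's matrix, below the median of all genes in both. DAHP synthase catalyses the entry reaction, in which phosphoenolpyruvate and erythrose 4-phosphate are joined. Its gene10771 had values of 3.50 and 3.45 in red against 2.54 and 2.56 in green, which did not overlap, and was higher in red by 0.93 ± 0.07 (SE, adjusted p = 7.0e-04). The other DAHP synthase genes differed by -0.32 (gene16261, adjusted p = 0.014) and -0.15 (gene21571, not past the test), and gene16261 was higher by 0.15 in the study's matrix and lost its call without red replicate 1, red replicate 2 or green replicate 2. After the normexp correction gene21571 was called lower (-0.44, adjusted p = 0.015).

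The largest change of the trunk was in the bifunctional step that turns dehydroquinate into shikimate. Shikimate dehydrogenase gene22236 had values of -5.39 and -5.79 in red against -0.68 and -0.77 in green, with all red values far below the green ones, and was lower in red, at -4.86 ± 0.16 (SE, adjusted p = 1.1e-04), a 29.1-fold difference. Its second probe was not well above background on any array and was left out. The related gene21107 differed by only -0.22 and is 1 of the genes whose sign turned, to 0.25 in the study's matrix and after quantile normalization, and whose adjusted p of 0.042 became 0.096 to 0.20 without any 1 array. Both shikimate kinases, which phosphorylate shikimate, were lower in red. For gene31604 the values were 1.53 and 1.55 in red against 2.48 and 2.29 in green and the difference -0.84 ± 0.09 (SE, adjusted p = 0.0024), and for the shikimate kinase family gene01367 it was -0.53 ± 0.09 (SE, adjusted p = 0.008), but -0.06 and not past the test in the study's matrix (adjusted p = 0.53). EPSP synthase, the enzyme blocked by glyphosate, hardly differed in gene03903 (0.02 ± 0.06 SE, not past the test), but this depended on the scaling. The gene was called higher in the study's matrix (0.48, adjusted p = 0.0049) and lower after quantile normalization (-0.22, adjusted p = 0.037). Chorismate synthase makes the last step of the trunk. Its gene23311 was higher by 0.26 with an adjusted p of 0.025 that rose to between 0.077 and 0.14 without any 1 array, and the difference was 0.003 after quantile normalization (adjusted p = 0.97). The genes gene23302 (0.01) and gene22788 (-0.06) did not pass, with overlapping arrays, but gene23302 was called higher in the study's matrix (0.48, adjusted p = 0.030).

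**Figure D2:**
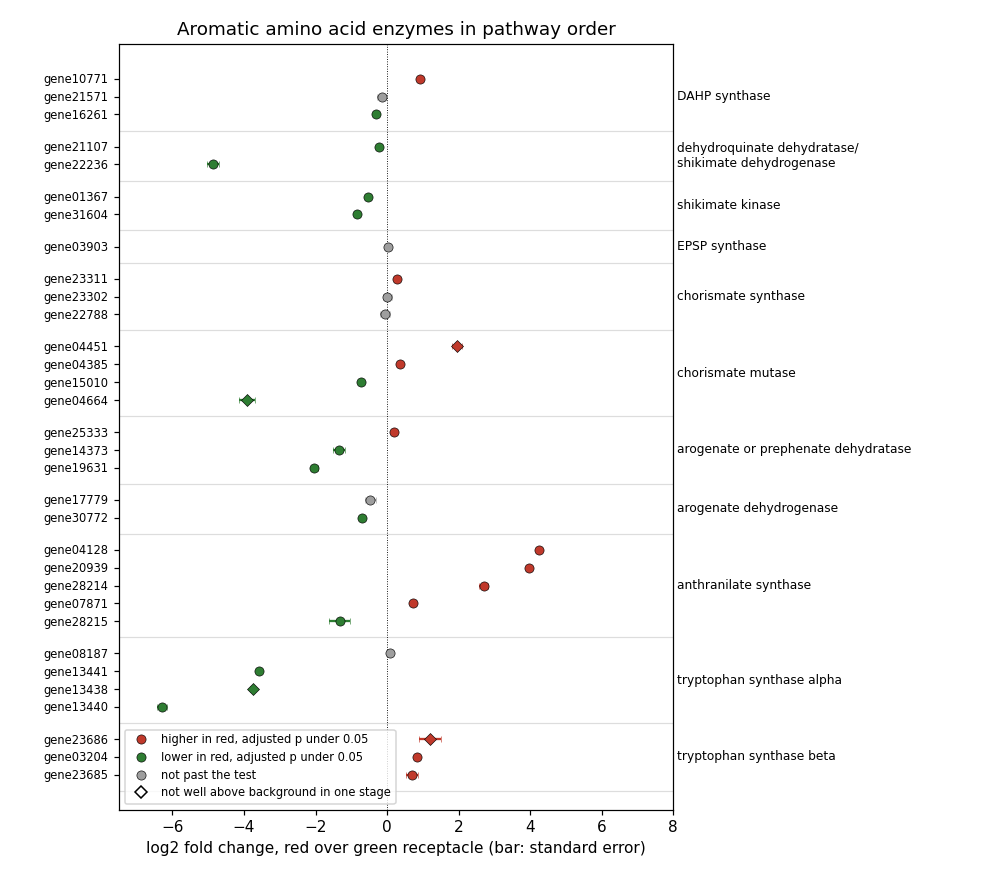
Log2 fold change (red over green receptacle, x axis) with its standard error for each tested gene of the shikimate trunk and of the aromatic amino acid branches, ordered from the entry of the pathway at the top to tryptophan synthase at the bottom. Differences above 3 in absolute value appear in shikimate dehydrogenase, a chorismate mutase, anthranilate synthase and tryptophan synthase alpha, and anthranilate synthase has 4 genes to the right of 0 and 1 to the left.

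In the branch to phenylalanine and tyrosine 9 genes were tested, with a median of -0.70. Of these 3 were higher in red (33.3%, against 37.8% of all genes), 5 were lower (55.6%, against 35.1%) and 1 did not pass. Chorismate mutase commits chorismate to this branch by turning it into prephenate. Its 4 genes were split. The values of gene04664 were -8.07 and -7.69 in red against -3.72 and -4.19 in green, and as it was not well above background in red it was at least 8.32-fold lower there (adjusted p = 4.2e-04), while gene15010 was lower, at -0.72 ± 0.06 (SE, adjusted p = 0.0013). The chorismate mutase gene04385 was higher by 0.36 ± 0.07 (SE, adjusted p = 0.012), a call that was lost without red replicate 1 (0.32, adjusted p = 0.075) and after quantile normalization (0.17, adjusted p = 0.091). For gene04451 no green array stood well above background, which gave a bound of at least 1.90-fold higher in red, but the fitted difference of 1.95 became -0.30 after the normexp correction.

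Arogenate or prephenate dehydratases catalyse the step that gives the phenyl ring of phenylalanine. The most changed of them, gene19631, had values of -3.50 and -3.63 in red against -1.49 and -1.58 in green and was lower in red, at -2.03 ± 0.08 (SE, adjusted p = 1.9e-04). The values of gene14373 were -3.72 and -3.36 in red against -2.29 and -2.10 in green, and it was lower, at -1.34 ± 0.16 (SE, adjusted p = 0.003). In neither gene did the stages overlap. The prephenate dehydratase gene25333 was higher by 0.20 with an adjusted p of 0.047, which rose to between 0.11 and 0.21 without any 1 array and to 0.55 after quantile normalization, where the difference was 0.046. Arogenate dehydrogenase, which makes tyrosine, was lower in gene30772, at -0.70 ± 0.06 (SE, adjusted p = 0.0014), and gene17779 differed by -0.47 without passing (adjusted p = 0.051), though it passed without red replicate 1 (-0.60, adjusted p = 0.045). For phenylalanine ammonia-lyase, which uses phenylalanine for phenylpropanoids and is not a member, both tested genes were higher in red, by 1.81 for gene23261 and by 0.36 for gene09753, and the second lost its call without red replicate 1 or red replicate 2 (adjusted p = 0.063 and 0.052).

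In the tryptophan branch most anthranilate synthase genes and all tryptophan synthase beta genes were higher in red, while 3 tryptophan synthase alpha genes were lower. Of 12 tested genes 7 were higher (58.3%, against 37.8% of all genes), 4 were lower (33.3%, against 35.1%) and 1 did not pass. Of these 12, 8 changed by at least 2-fold, 4 higher (33.3%, against 17.4% of all genes) and 4 lower (33.3%, against 21.5%). Anthranilate synthase takes chorismate out of the common pathway, with an alpha subunit that binds chorismate and a beta subunit that delivers ammonia from glutamine. Its product anthranilate is also the precursor of methyl anthranilate, an aroma compound of some strawberries. Of its 5 genes 4 were higher in red (80%, against 37.8% of all genes), with a median difference of 2.70 over all 5.

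The beta subunit gene04128 had values of 4.94 and 4.94 in red against 0.73 and 0.66 in green. It was higher in red by 4.24 ± 0.07 (SE, adjusted p = 3.5e-05). The alpha subunit gene20939 had values of 2.32 and 2.22 in red against -1.69 and -1.67 in green and was higher by 3.96 ± 0.07 (SE, adjusted p = 4.2e-05). In both genes the stages were far apart and the arrays of a stage lay close together. A further alpha subunit gene, gene28214, had values of -1.17 and -0.89 in red against -3.72 and -3.73 in green and was higher by 2.70 ± 0.12 (SE, adjusted p = 2.2e-04), and the alpha subunit gene07871 by 0.73 ± 0.07 (SE, adjusted p = 0.0017). The opposite direction was found in gene28215, annotated as an alpha-1 chain-like protein, at -1.32 ± 0.29 (SE, adjusted p = 0.019). It was well above background on only 1 of the red arrays, and its call was lost without green replicate 2 (-1.03, adjusted p = 0.059) and in the study's matrix (-1.10, adjusted p = 0.067). Beside these increases, 16 of the 26 seed markers were higher (61.5%, against 37.8% of all genes) and 8 were lower (30.8%, against 35.1%). Without the 5 proline-rich or extensin genes, 15 of 21 were higher and 4 lower. The part of the seed markers was not tested.

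Tryptophan synthase carries out the last reactions, in which the alpha subunit releases indole from indole-3-glycerol phosphate and the beta subunit joins it to serine. Of the 4 tested alpha genes 3 were lower in red (75%, against 35.1% of all genes) and none was higher (against 37.8%). The values of gene13440 were -4.05 and -4.40 in red against 2.06 and 2.07 in green, and it was lower, at -6.29 ± 0.14 (SE, adjusted p = 5.4e-05), or 78.3-fold, the largest fitted decrease of all members. For gene13441 the values were -1.80 and -1.89 in red against 1.74 and 1.75 in green and the difference -3.59 ± 0.07 (SE, adjusted p = 4.4e-05). The third, gene13438, was not well above background in red and was at least 6.61-fold lower there (adjusted p = 4.5e-05). These genes are annotated also as indole synthase or indole-3-glycerol phosphate lyase, enzymes that release free indole in maize, and their annotations are alike. The fourth, gene08187, carries that wording too and had values of 2.26 and 2.26 in red against 2.16 and 2.18 in green. Its difference of 0.09 ± 0.06 (SE) did not pass, but it was called higher in the study's matrix (0.55, adjusted p = 0.0033). All 3 beta genes were higher in red (against 37.8% of all genes), with smaller differences, namely 0.85 for gene03204, 0.70 for gene23685 and 1.20 for gene23686. The last was not well above background in green (at least 2.30-fold) and became -0.26 after the normexp correction. The calls of gene23685 and gene23686 were lost without red replicate 1 (adjusted p = 0.073 and 0.065), and that of gene23686 also without red replicate 2 (0.068).

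**Figure D3:**
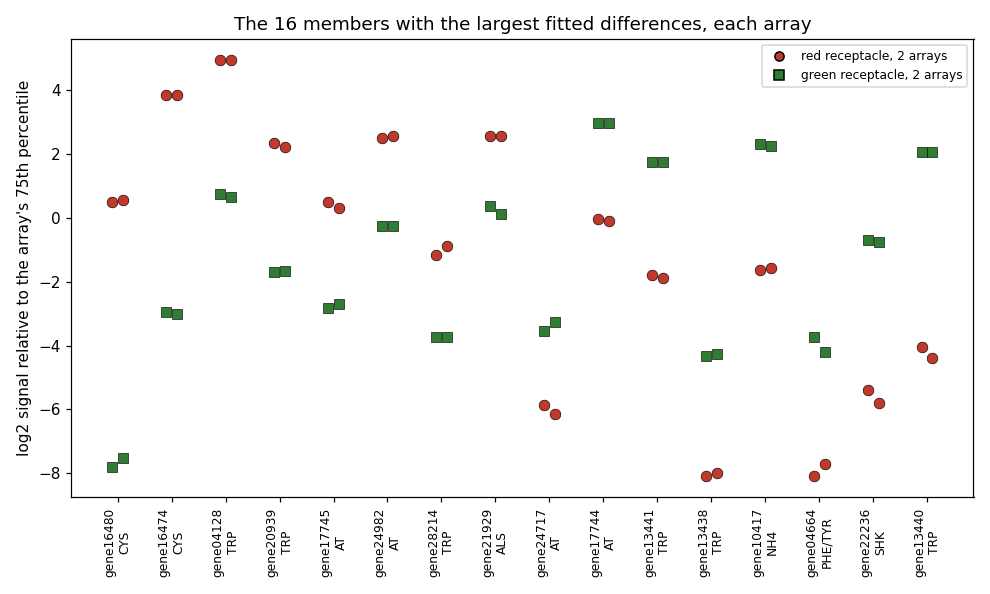
Log2 signal relative to the 75th percentile of the array (y axis) on each of the 4 arrays for the 16 called members with the largest fitted differences (x axis, ordered from higher in red to lower in red), with red circles for red and green squares for green receptacle. CYS stands for cysteine synthase, TRP for the tryptophan branch, AT for aminotransferase, ALS for acetolactate synthase, NH4 for ammonium assimilation, PHE/TYR for the phenylalanine and tyrosine branch and SHK for the shikimate trunk. The arrays of a stage lie close together in each gene and the stages do not overlap, which the choice of called members favours. The glutamine synthetase gene00821, with a fitted 2.52 and green arrays far apart, did not pass and is not shown.

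Of 7 ammonium assimilation genes 2 were higher (28.6%, against 37.8% of all genes), 2 were lower (28.6%, against 35.1%) and 3 did not pass. Neither glutamine synthetase gene passed. The cytosolic isozyme gene17694 had values of 1.66 and 1.78 in red against 1.87 and 2.08 in green and differed by -0.26 (adjusted p = 0.095). After quantile normalization gene17694 was called lower (-0.44, adjusted p = 0.024). For gene00821 the values were -3.75 and -3.96 in red against -7.60 and -5.15 in green. The green arrays were not well above background and lay far apart, so only a bound of at least 4.27-fold applies, and the test was not passed (adjusted p = 0.067), though it was without green replicate 1 (fitted 1.30, adjusted p = 0.0078), without green replicate 2 (fitted 3.74, adjusted p = 0.0015) and after quantile normalization (adjusted p = 0.038). Glutamate synthase, which transfers the amide nitrogen of glutamine to form glutamate, was lower in red in gene12856, with values of 2.51 and 2.52 in red against 3.09 and 3.17 in green and a difference of -0.61 ± 0.07 (SE, adjusted p = 0.0026), which was -0.15 and not past the test in the study's matrix (adjusted p = 0.11).

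Glutamate dehydrogenase, which can release ammonium from glutamate and feed its carbon into respiration, was split among its 4 genes. The values of gene10417 were -1.63 and -1.56 in red against 2.30 and 2.24 in green, and it was lower in red, at -3.87 ± 0.07 (SE, adjusted p = 4.2e-05), or 14.6-fold. The genes gene23112 and gene21418 were higher by 0.80 and 0.30, the second only with all 4 arrays (adjusted p of 0.018, and of 0.051 to 0.10 without any 1 of them) and not after quantile normalization (0.053, adjusted p = 0.48), and gene10784 differed by -0.05 without passing. In the study's matrix gene10784 was called higher (0.42, adjusted p = 0.010). Asparagine synthetase makes the amide that stores and transports nitrogen, and both of its genes were lower at the common 75th percentile but neither in the study's matrix. For gene07938 the values were 2.40 and 2.44 in red against 2.94 and 2.97 in green, without overlap, and the difference was -0.53 ± 0.06 (SE, adjusted p = 0.0032), against -0.07 in that matrix (adjusted p = 0.38). The smaller difference of gene23170, -0.25, turned to 0.22 in the study's matrix and to 0.11 after quantile normalization, and its adjusted p of 0.028 became 0.072 to 0.14 without any 1 array. Upstream, nitrate reductase (gene02263, no member) was higher in red by 1.17 and nitrite reductase (gene28260, no member), the plastid enzyme that makes ammonium, was lower by 2.69 on the log2 scale (adjusted p of 4.4e-04 and 7.1e-05).

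The 25 aminotransferases are a mixed group. Of the 20 tested, 8 were higher (40%, against 37.8% of all genes), 8 were lower (40%, against 35.1%) and 4 did not pass. In each direction 5 changed by at least 2-fold (25%, against 17.4% of all genes higher and 21.5% lower). The clearest contrast was between a pair of genes with the same annotation, tyrosine or nicotianamine aminotransferase, which covers a start of tyrosine breakdown and a step in the synthesis of iron-binding phytosiderophores in grasses. In gene17745 the values were 0.48 and 0.30 in red against -2.82 and -2.69 in green, and in gene17744 they were -0.05 and -0.10 in red against 2.98 and 2.95 in green. The first was higher in red by 3.15 ± 0.10 (SE, adjusted p = 1.1e-04) and the second lower, at -3.04 ± 0.06 (SE, adjusted p = 4.9e-05), so that the stages were apart in opposite directions, 8.87-fold and 8.23-fold.

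Branched-chain aminotransferase makes the last step in the synthesis of leucine, isoleucine and valine and the first of their breakdown, and 4 of its 6 genes were tested. The values of gene02644 were 2.23 and 2.20 in red against 0.78 and 0.80 in green, and it was higher in red by 1.42 ± 0.06 (SE, adjusted p = 2.2e-04), as was gene02645 by 0.95 ± 0.11 (SE, adjusted p = 0.0026). The opposite was found for gene24717, with values of -5.85 and -6.14 in red against -3.55 and -3.26 in green, at -2.59 ± 0.16 (SE, adjusted p = 5.1e-04), which stood well above background on 1 red array, while gene05582 (-0.20) did not pass. The study's matrix gave gene05582 a higher call (0.27, adjusted p = 0.044) and quantile normalization a lower one (-0.37, adjusted p = 0.015). Of the aspartate aminotransferases, which exchange the amino group between glutamate and aspartate, gene15784 had values of 2.53 and 2.50 in red against 1.29 and 1.26 in green and was higher by 1.24 ± 0.06 (SE, adjusted p = 3.1e-04). The other tested gene annotated by that name, gene31308, differed by 0.36 without passing (adjusted p = 0.15). It passed in the study's matrix (0.83, adjusted p = 0.021) and after the normexp correction (0.405, adjusted p = 0.048).

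Serine-pyruvate and alanine-glyoxylate aminotransferases consume glyoxylate in photorespiration. The values of gene14852, annotated as serine-pyruvate aminotransferase, were 2.71 and 2.93 in red against 4.42 and 4.55 in green, without overlap. It was lower in red, at -1.66 ± 0.11 (SE, adjusted p = 5.8e-04), as was the alanine-glyoxylate aminotransferase gene31619, at -0.67 ± 0.06 (SE, adjusted p = 0.0015), which was -0.20 and not past in the study's matrix (adjusted p = 0.053), and gene13811 (-0.19) did not pass. After the normexp correction gene13811 was called lower (-0.43, adjusted p = 0.012). Serine hydroxymethyltransferase, another enzyme of photorespiration and of serine and glycine synthesis outside the members, had 4 lower and 2 higher genes among the 8 tested. They ran from gene05573, gene05574 and gene22698, lower by 2.93, 2.79 and 2.51 on the log2 scale, and gene06563, lower by 1.57, to gene29492, higher by 1.69. Of the photosystem genes 49 of 51 were lower, with a median of -2.94 when genes not well above background stand at their bound, and their part in these results was not tested.

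Among the remaining aminotransferases, gene24982, annotated only as a family member, had values of 2.51 and 2.56 in red against -0.27 and -0.27 in green. It was higher by 2.80 ± 0.06 (SE, adjusted p = 5.6e-05). The putative aminotransferase ybdL, gene02334, carries the enzyme number of aspartate aminotransferase and was higher by 1.70 ± 0.12 (SE, adjusted p = 6.4e-04). Aminotransferases of ornithine (gene30368, 0.62), which links ornithine to proline and glutamate, and of histidinol phosphate (gene14330, 0.46), in histidine synthesis, were higher. Lower values were found for the enzyme of biotin synthesis (gene25633, -1.69), for D-alanine aminotransferase (gene08797, -0.94) and for gene24209, whose enzyme number is that of 4-aminobutyrate transaminase (-1.12). Phosphoserine aminotransferase, in the plastid route to serine, was lower by a small margin in gene13063 (-0.24), which turned to 0.23 in the study's matrix, and its adjusted p of 0.035 became 0.069 to 0.16 without any 1 array. The enzyme that makes glucosamine 6-phosphate (gene16820, -0.20) did not pass. It was called higher in the study's matrix (0.26, adjusted p = 0.034) and lower after quantile normalization (-0.27, adjusted p = 0.024).

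Cysteine synthase, or O-acetylserine (thiol) lyase, fixes sulfide into cysteine, and beta-cyanoalanine synthases of the same protein family use cysteine to detoxify cyanide. All 11 genes were tested, of which 8 were higher in red (72.7%, against 37.8% of all genes), 1 was lower (9.09%, against 35.1%) and 2 did not pass, with a median of 0.65. Of the 26 seed markers 16 were higher (61.5%) and 8 lower (30.8%), and of the 21 that are not proline-rich or extensin genes 15 were higher and 4 lower. The part of the seed markers was not tested. Most differences were modest, but gene16480 and gene16474 had the largest increases of all members. In gene16474 the values were 3.83 and 3.84 in red against -2.95 and -3.02 in green, and it was higher by 6.82 ± 0.07 (SE, adjusted p = 3.1e-05), or 113-fold. In gene16480 they were 0.50 and 0.55 in red against -7.79 and -7.53 in green, where the green values were not well above background on either array, so that it was at least 138-fold higher in red (adjusted p = 3.2e-05). Both genes carry the annotations of cysteine synthase and of beta-cyanoalanine synthase.

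The next in size, gene16481, was annotated also as a harpin-induced protein and was not well above background in green. Its bound of at least 2.64-fold turned to a fitted difference of -0.22 after the normexp correction, and its call was lost without red replicate 2 or green replicate 1 (adjusted p = 0.087 and 0.10). The other higher cysteine synthases were gene10184 at 1.03, gene23536 at 0.86, gene16471 at 0.65, gene09775 at 0.57 and gene16470 at 0.52, with adjusted p of 0.0079 or less. The single lower one, gene19274, had values of 0.24 and 0.22 in red against 1.64 and 1.50 in green, without overlap, and a difference of -1.34 ± 0.08 (SE, adjusted p = 4.5e-04). The genes that did not pass were gene24251 (-0.04) and gene16483 (-0.15), but this depended on the scaling. In the study's matrix both were called higher (0.42, adjusted p = 0.014, and 0.31, adjusted p = 0.030). After quantile normalization gene16483 was called lower (-0.41, adjusted p = 0.012).

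Acetolactate synthase opens the synthesis of branched-chain amino acids. All 6 of its genes passed, where 72.8% of all genes did. In each direction there were 3 (50%, against 37.8% of all genes higher and 35.1% lower). The values of gene21929 were 2.55 and 2.54 in red against 0.36 and 0.13 in green, and it was higher in red by 2.30 ± 0.11 (SE, adjusted p = 2.4e-04), or 4.93-fold. Both genes for the small, regulatory subunit were also higher, gene10139 by 0.53 and gene20244 by 0.46. Lower values were found for gene10751 (-0.44), gene09201 (-0.61) and gene10762 (-0.67), of which gene10751 turned to 0.021 in the study's matrix, gene09201 was -0.14 and not past there (adjusted p = 0.15), and gene10762 is annotated also as a cellulose synthase.

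Aspartokinase is the entry to lysine, threonine and methionine, and in plants it exists as a single enzyme and as a bifunctional enzyme fused to homoserine dehydrogenase, which leads towards threonine and methionine. The 2 bifunctional genes were higher in red and the 2 others were lower. For gene12401 the values were 3.38 and 3.30 in red against 1.92 and 1.93 in green, and for gene12400 they were 0.76 and 0.87 in red against -0.50 and -0.32 in green. They were higher by 1.42 ± 0.07 (SE, adjusted p = 2.8e-04) and 1.22 ± 0.10 (SE, adjusted p = 0.001). Of the other genes, gene01389 had values of -0.34 and -0.42 in red against 0.33 and 0.36 in green and a difference of -0.73 ± 0.07 (SE, adjusted p = 0.0015), and gene07285 differed by -0.40, which turned to 0.06 in the study's matrix and was -0.10 after quantile normalization (adjusted p = 0.24).

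A further 6 members were found by wording only and make no amino acid or shikimate intermediate by their annotation, apart from N-acetylglutamate synthase, which opens ornithine and arginine synthesis. The latter, gene19173, had values of -3.09 and -3.04 in red against -1.92 and -1.81 in green and was lower in red, at -1.20 ± 0.08 (SE, adjusted p = 5.5e-04). The folylpolyglutamate synthases gene21935 and gene20857, which lengthen the tail of folates, differed by -0.78 (adjusted p = 0.0042, and -0.32 with 0.076 in the study's matrix) and -0.16 (not past the test). For gene20857 the call was higher in the study's matrix (0.31, adjusted p = 0.019) and lower after quantile normalization (-0.25, adjusted p = 0.027). The cytochrome P450 gene17417 was higher by 0.66 but at -0.10 after the normexp correction, and gene17892, a NifS-like cysteine desulfurylase, differed by 0.04 without passing. The latter was called higher in the study's matrix (0.57, adjusted p = 0.0056) and after quantile normalization (0.50, adjusted p = 0.0068). After the normexp correction gene17892 was called lower (-0.31, adjusted p = 0.038). Without these members, 35 of 82 were higher and 32 lower (42.7% and 39%, against 37.8% and 35.1% of all genes).

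The 10 members that were not tested were a shikimate dehydrogenase (gene22244), a chorismate synthase (gene22789), a tryptophan synthase alpha gene (gene20225), the isochorismate synthase gene25950, on a route to salicylic acid, 2 aspartate aminotransferases (gene16078 and gene28544), 2 branched-chain aminotransferases (gene01730 and gene24714), a cytochrome P450 (gene25986) and an aminotransferase of classes I and II (gene11985). The last was well above background on 3 arrays but lacked a value on the other, gene22789 was well above background on 1 array, and the other 8 on none. For 77 of the tested members the signal was well above background on all 4 arrays, and among these 32 were higher and 30 lower (41.6% and 39%). Of the 21493 genes well above background on all 4 arrays, 38.6% were higher and 33.8% lower.

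Other genes of amino acid synthesis, were matched by a separate list of enzyme names. Of 62 such genes 55 were tested, 20 were higher in red (36.4%, against 37.8% of all genes), 20 were lower (36.4%, against 35.1%) and 15 did not pass, with a median of -0.03. The counts were 32 higher and 10 lower in the study's matrix, where 52.8% of all genes were higher and 23.9% lower. The largest fitted difference among them, -2.96 for the homoserine kinase gene17335, did not pass (adjusted p = 0.19), as its values were -2.48 on red replicate 1 and 2.23 on red replicate 2 against 2.78 and 2.87 in green. Without red replicate 1 it was -0.60 (adjusted p = 0.019) and without red replicate 2 it was -5.31 (adjusted p = 3.0e-04).

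**Figure D4:**
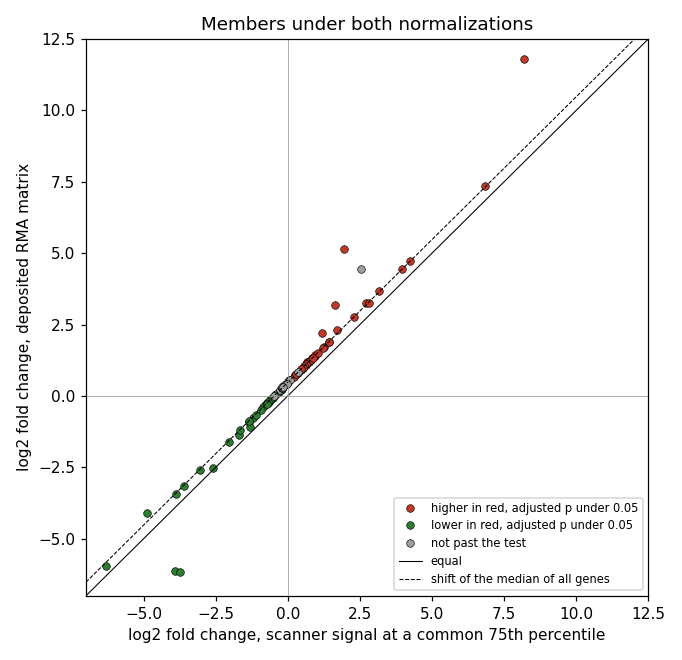
Log2 fold change (red over green receptacle) of the 87 tested members from the scanner signal at a common 75th percentile (x axis) and from the study's RMA matrix (y axis), with a solid line for equal values and a dashed line shifted by the difference between the medians of all genes. Most members lie close to the dashed line, and those that leave it are mainly genes not well above background in a stage.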

How the data were processed

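Total RNA of each sample was labelled and hybridised by the authors, and the scans were read with Agilent Feature Extraction 10.7.3.1, per the file headers. The deposited intensity of a spot was background-subtracted and detrended by this software, without normalization across arrays. A matrix of RMA intensities on a linear scale, also deposited, served to find members by annotation and as an alternative; its software and settings are not given in the sources used here.

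Controls were left out, as were spots with a flag for unevenness or outlying values (84 to 255 on an array). The log2 of the processed signal, less that of the 75th percentile of the array, was averaged over the spots of a probe. A probe was kept if at least 2 of the 4 arrays had it well above background, a gene was the mean of its kept probes, and 40 genes lacking a value on an array were left out. Stages were compared in limma 3.58.1 (R 4.3.3, lmFit, eBayes, two-sided) with 2 residual degrees of freedom over 24975 genes. A gene not well above background on both arrays of a stage has a bound, taken on each array against the higher of its own signal and the dimmest one well above background. The number of arrays (4) limits the precision. Only the limma fit, without the scaling, probe filter and bounds, was run on simulated log2 values with known changes. None of the gene identifiers matched the reference table, so no positions or sequences are given.

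The members and lists were chosen with earlier results of these data known. Members were to be named where a list held at most 4 tested genes, and otherwise for the 4 largest differences and the smallest; further ones were named after their values were seen. Alternatives were the RMA matrix, quantile normalization, normexp on median signals (offset 50), no filter or a filter on all 4 arrays, the median over probes, an intensity trend, the methods' t-test, other thresholds, blocks for replicate number or slide, and each array left out in turn.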

Additional observations from a re-analysis of the deposited data

How the results depend on the processing

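The counts of 36 higher and 34 lower members became 50 and 21 in the study's RMA matrix, and 35 and 37 after quantile normalization. Of all genes 52.8% were higher and 23.9% lower in the RMA matrix, and 42.6% and 31.3% after quantile normalization. At the study's threshold (a log2 change above 2 and an unadjusted p of 0.05 or less in the methods' t-test) 8 of the 87 members were higher and 9 lower, against 6.45% and 11.7% of all genes (1612 and 2925 of 24975). With a minimum of 2-fold 17 members were higher and 16 lower (19.5% and 18.4%, against 17.4% and 21.5% of all genes, or 4353 and 5381). Left-out arrays gave 30 to 34 higher and 29 to 31 lower members. Of the role lists, 2 held more higher than lower members, and 9 did in the RMA matrix. Other genes of amino acid synthesis were 20 higher and 20 lower, 32 and 10 in the RMA matrix, 0 and 6 at the study's threshold, 10 and 11 with a minimum of 2-fold, and 13 to 16 higher and 17 to 18 lower with left-out arrays. The study's threshold left 8 of the 16 higher seed storage genes, and 15 were higher without the proline-rich and extensin genes, an alternative chosen after seeing the data.

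Signs turned in the RMA matrix for gene20857 (0.31), gene21107 (0.25), gene16261 (0.15), gene10784 (0.42), gene23170 (0.22), gene05582 (0.27), gene16820 (0.26), gene13063 (0.23), gene24251 (0.42), gene16483 (0.31), gene10751 (0.021) and gene07285 (0.06), and without passing the test in either setting for gene21571 (0.33), gene22788 (0.42), gene17694 (0.20) and gene13811 (0.32), where the median difference of all genes was 0.51, against 0.04 with the 75th percentile. They turned after quantile normalization for gene03903 (-0.22), gene21107 (0.25) and gene23170 (0.11) and for 6 others past the test in neither setting, and after the normexp correction for gene17417 (-0.10), gene17892 (-0.31), gene04451 (-0.30), gene23686 (-0.26) and gene16481 (-0.22), besides gene23302, which passed in neither setting.

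Samples with the same replicate number did not deviate together (correlation 0.08) and share only a number. With the replicate block 36 members were higher and 32 lower, with calls lost for gene21107, gene25333, gene13063 and gene28215 (adjusted p of 0.053 to 0.071) and gained for gene17779 (0.012) and gene31308 (0.025). The slide as a block leaves red replicate 1 without weight, and gave 30 and 31. Where a stage was left with 1 array, it was assumed to vary like the other stage. Depth on an array is signal over background, and 7 tested members had only a bound in 1 stage.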
